A study of Mus musculus with 12 samples.

Results

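NF-kB is a family of transcription factors that responding T cells use to turn antigen receptor and co-stimulatory signals into gene expression. The 10 genes described here are its 5 subunit genes (*Nfkb1*, *Nfkb2*, *Rel*, *Rela* and *Relb*) and 5 genes of the I-kappa-B family (*Nfkbia*, *Nfkbib*, *Nfkbid*, *Nfkbie* and *Bcl3*), taken by name from 56691 gene rows of the count table. All 10 had at least 30 reads summed over the 12 samples and were among the 15138 genes tested. Messenger RNA was sequenced from the 3′ end in splenic CD4+ T cells of 12 mice, 1 library a mouse and 3 mice a group. The groups differed in the antibody given: isotype control, anti-Lag3, anti-PD-L1, or both blocking antibodies (CB, for combination blockade). The comparisons ask what blockade of either inhibitory receptor pathway, and of both, did to gene expression early in re-activation.

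Every mouse was Tg4 Nr4a3-Tocky Il10-GFP, so that its T cells carried a transgenic receptor for a myelin basic protein peptide, a Timer protein driven by *Nr4a3*, and a GFP reporter of *Il10*. Every mouse received 4 mg/kg of the [4Y]-MBP peptide under the skin, antibody 24 h later, 0.4 mg/kg of peptide 30 min after the antibody, and was killed 12 h after that. The cells sequenced were the CD4+ Nr4a3-Blue+Red+ fraction, which holds cells with continuing antigen receptor signalling at the time of the sort. No group was without peptide, so resting cells were not part of the comparisons, and the model is a single receptor specificity selected on *Nr4a3* activity.

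In the resting cell, NF-kB dimers are held in the cytoplasm by I-kappa-B proteins. In the canonical route, antigen receptor signals reach the I-kappa-B kinase, the inhibitors are degraded, and dimers of p50 with RelA or c-Rel enter the nucleus. In the non-canonical route, receptors of the tumour necrosis factor family release the kinase NIK, the p100 precursor is processed to p52, and p52 acts with RelB. Several inhibitor genes are themselves NF-kB targets, which gives the pathway its negative feedback.

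The letters of the kappa-B consensus, to which NF-kB dimers bind, were searched for on both strands in the promoter windows that RefSeq gives on GRCm38.p6 (250 bases before and 50 bases after a gene start). The table held 12 windows for 8 of the 10 genes, and *Nfkb1* and *Relb* had none. The consensus stood in 8 of the 12 windows, against 8.46% of 32851 mouse promoter windows, and 2 of the 3 *Nfkb2* windows overlap each other and share a match. An AP-1 site (TGANTCA) stood in 2 of 12 windows against 7.81% of all, and the NFAT core (GGAAA, which can lie inside a kappa-B match) in 10 of 12 against 61.3%. Windows of *Bcl3* and *Rel* are shown because their transcripts lay furthest from isotype among the genes with a window, *Nfkbia* because it differed between the sample numbers, and *Nfkb2* because it held a pair of separate matches, with bases that match the consensus on either strand in capitals and each sequence read 5′ to 3′ along its gene.
Bcl3, chr7:19822706-19823005, minus strand: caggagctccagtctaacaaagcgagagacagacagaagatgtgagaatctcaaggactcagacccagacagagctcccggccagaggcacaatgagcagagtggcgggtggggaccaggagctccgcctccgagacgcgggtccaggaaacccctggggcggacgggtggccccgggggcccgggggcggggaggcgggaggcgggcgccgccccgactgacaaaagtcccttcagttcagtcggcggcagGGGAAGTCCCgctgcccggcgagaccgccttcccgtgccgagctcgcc
Rel, chr11:23770920-23771219, minus strand: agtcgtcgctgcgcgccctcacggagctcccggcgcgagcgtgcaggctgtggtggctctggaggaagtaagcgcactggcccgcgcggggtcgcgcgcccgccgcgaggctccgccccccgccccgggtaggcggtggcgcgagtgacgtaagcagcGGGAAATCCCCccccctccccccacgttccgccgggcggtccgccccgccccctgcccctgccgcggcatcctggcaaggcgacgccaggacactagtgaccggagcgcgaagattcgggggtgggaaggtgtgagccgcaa
Nfkbia, chr12:55492598-55492897, minus strand: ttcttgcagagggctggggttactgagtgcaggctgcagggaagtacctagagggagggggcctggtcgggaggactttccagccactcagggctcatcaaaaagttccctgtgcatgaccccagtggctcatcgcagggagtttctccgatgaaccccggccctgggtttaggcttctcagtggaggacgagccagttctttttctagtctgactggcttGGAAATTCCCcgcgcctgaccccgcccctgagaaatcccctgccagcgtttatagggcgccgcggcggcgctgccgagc
Nfkb2, chr19:46304487-46304786, plus strand: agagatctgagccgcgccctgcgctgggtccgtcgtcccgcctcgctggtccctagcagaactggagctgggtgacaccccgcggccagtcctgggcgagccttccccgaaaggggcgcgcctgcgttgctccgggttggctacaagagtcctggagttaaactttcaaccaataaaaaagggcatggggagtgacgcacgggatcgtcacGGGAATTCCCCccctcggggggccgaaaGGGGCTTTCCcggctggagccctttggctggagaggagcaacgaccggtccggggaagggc
The capitals began at base +3 of *Bcl3*, -92 of *Rel*, -29 of *Nfkbia*, and -39 and -11 of *Nfkb2*, counted from the gene start as +1. No match was found in the single windows of *Rela* and *Nfkbib*. A match describes letters and is not evidence that the site is used in these cells.

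The libraries held between 16449370 and 22151025 reads in genes. The 8 CD4+ T cell markers summed to between 3168 and 3738 reads per 1000000 (CPM, library sizes scaled by the trimmed mean of M-values) over the 12 samples. The range was 3518 to 3738 CPM in isotype and 3168 to 3232 CPM in CB, without overlap. Of the 8 genes, 7 were lower and 1 higher in CB. The 6 B cell markers summed to between 4.78 and 16.2 CPM in isotype and between 1.62 and 17.6 CPM in CB, and the 8 myeloid markers to between 60.8 and 72.0 CPM and between 54.8 and 66.4 CPM. Most of the myeloid sum was *Cst3*, with means of 57.1 CPM in isotype and 52.6 CPM in CB. Of the 8 myeloid genes, 1 had no reads, and of the 7 tested, 2 were higher and 4 lower in CB. The 4 NK cell markers summed to between 18.4 and 36.0 CPM in isotype and between 8.51 and 15.7 CPM in CB, without overlap. Most of that sum was *Gzma*, with means of 26.3 CPM in isotype and 9.37 CPM in CB (log2 difference -1.49, edgeR adjusted p = 0.00569). Of the 4 genes, 2 were lower and 2 higher in CB. The higher ones, at low levels, were *Klrb1c* (means 0.307 and 1.43 CPM) and *Klre1* (0.817 and 1.25 CPM). The 2 CD8 markers summed to between 40.9 and 45.3 CPM in isotype and between 25.0 and 33.2 CPM in CB, also without overlap. Most of that sum was *Cd8b1*, with means of 42.0 and 29.7 CPM (log2 difference -0.50, edgeR adjusted p = 0.242). *Cd8a* had means of 0.772 CPM in isotype and 0.402 CPM in CB. The 5 erythroid genes summed to between 241 and 449 CPM in isotype and between 150 and 198 CPM in CB, without overlap. Of the 5, 2 passed the test between these groups, where 4.29% of all genes tested did. Markers of T cells also differed, since the log2 difference of *Cd4* was -0.50 (edgeR adjusted p = 0.00918) and that of *Cd3e* was -0.39 (edgeR adjusted p = 0.0401). Isotype sample 2 stood apart from the other samples of that number in its sex-linked transcripts: the summed level of *Ddx3y*, *Eif2s3y*, *Uty* and *Kdm5d* was 104 CPM there and at most 0.941 CPM in the other 3, and its *Xist* level was 11.3 CPM against at least 260 CPM. The 4 samples numbered 1 had the Y-linked genes at 97.4 CPM or more, and the 4 numbered 3 at 0.053 CPM or less. Isotype thus had 2 samples with Y-linked transcripts, and the other groups had 1 each.

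Between CB and isotype, *Nfkb1* fell and *Bcl3* rose, and the other 8 genes did not pass the test (edgeR quasi-likelihood test with Benjamini-Hochberg adjustment over all genes, threshold 0.05). *Nfkb1*, which encodes p105 and its product p50, fell by 46.0%. *Bcl3*, which encodes an atypical nuclear I-kappa-B protein that partners p50 and p52 homodimers, was 1.70-fold higher. The paper also names *Bcl3* among the genes upregulated with CB, with shrunken estimates and a log2 threshold of 0.2. Here DESeq2 testing against 0.2 did not call *Bcl3* (adjusted p = 0.120). Over all genes 4.29% were called in this comparison, 2.33% higher in CB and 1.96% lower. In libraries from a sorted population, fewer cells of a type and less RNA per cell cannot be told apart.

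*Nfkb1* (ENSMUSG00000028163, GRCm38 chromosome 3, 135584655 to 135691547, minus strand) measured 90.4, 97.4 and 107 CPM in the isotype samples. The anti-Lag3 samples had 92.1, 67.0 and 80.2 CPM, the anti-PD-L1 samples 55.2, 50.5 and 81.1 CPM, and the CB samples 48.0, 60.3 and 51.2 CPM. Every CB and every anti-PD-L1 sample lay below every isotype sample, whereas the anti-Lag3 samples overlapped isotype. The log2 difference of CB from isotype was -0.89 (standard error 0.17, edgeR adjusted p = 0.00203). It was -0.66 for anti-PD-L1 (edgeR adjusted p = 0.258) and -0.30 for anti-Lag3 (edgeR adjusted p = 0.805), so neither passed. The call of CB against isotype was kept when any of the 12 samples was left out, and it was -0.91 (edgeR adjusted p = 7.94e-04) with the Y-linked pattern as a covariate. The gene body overlaps Gm43430 on the same strand, away from the 3′ end, and 2632 reads were assigned to that gene against 16969 to *Nfkb1*.

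*Bcl3* (ENSMUSG00000053175, chromosome 7, 19808462 to 19822770, minus strand) measured 37.6, 49.8 and 54.3 CPM in isotype. It was at 67.4, 67.4 and 72.2 CPM with anti-Lag3, 41.5, 52.0 and 64.1 CPM with anti-PD-L1, and 83.9, 75.2 and 82.0 CPM with CB. The samples of CB lay above all others, those of anti-Lag3 lay above isotype and anti-PD-L1, and anti-PD-L1 overlapped isotype. The log2 difference of CB from isotype was 0.77 (standard error 0.17, edgeR adjusted p = 0.00656). It was 0.55 for anti-Lag3 (standard error 0.17, edgeR adjusted p = 0.805), a separation of the samples that did not pass across all genes, and 0.15 for anti-PD-L1 (edgeR adjusted p = 0.867). The call was lost without isotype sample 1, which had the lowest *Bcl3* level (log2 difference 0.62, edgeR adjusted p = 0.0595), and was kept with the Y-linked pattern as a covariate (0.72, edgeR adjusted p = 0.00715). Gm16174 on the opposite strand held 190 reads against 14616 for *Bcl3*.

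**Figure D1:**
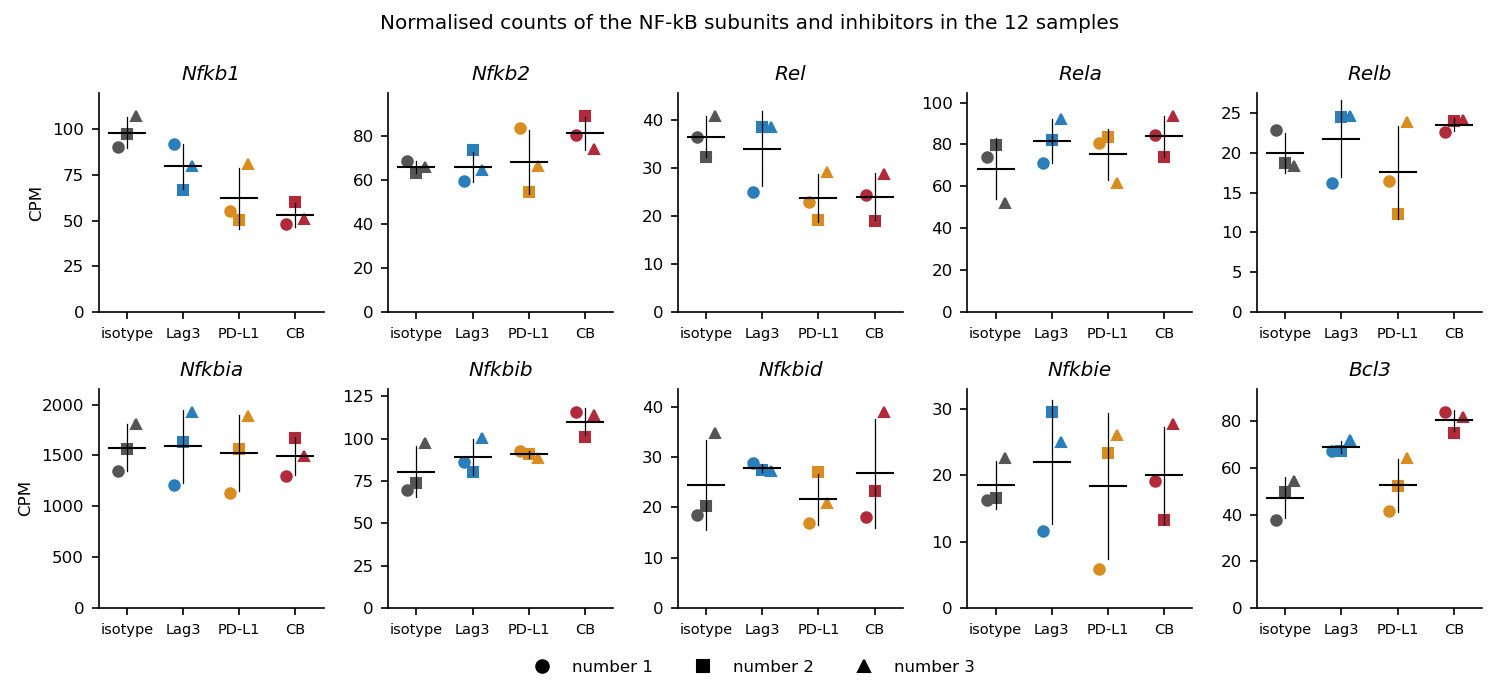
Normalised counts (CPM, linear axis from 0) of the 10 genes in every sample of the 4 groups, with marker shape for the sample number, a horizontal line at the group mean and a vertical line of 1 SD either side (n = 3). *Nfkb1* steps down from a mean of 98.3 CPM in isotype to 53.1 CPM in CB while *Bcl3* steps up from 47.2 to 80.3 CPM, and *Nfkbia* spreads within each group.

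Seen within each library, the pair moved apart. The log2 ratio of *Bcl3* to *Nfkb1* CPM was -1.07 ± 0.17 in isotype, -0.20 ± 0.23 in anti-Lag3, -0.24 ± 0.25 in anti-PD-L1 and 0.60 ± 0.25 in CB (mean ± SD, n = 3). All isotype ratios were below those of the other groups, and all CB ratios were above them. These ratios are given for their shift between groups only, since counts from 3′ ends of different genes are not on a common molecular scale. They were not tested, because both genes were already called, in opposite directions, in these same samples. The separation of CB from isotype is largely built in by that choice of genes.

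**Figure D2:**
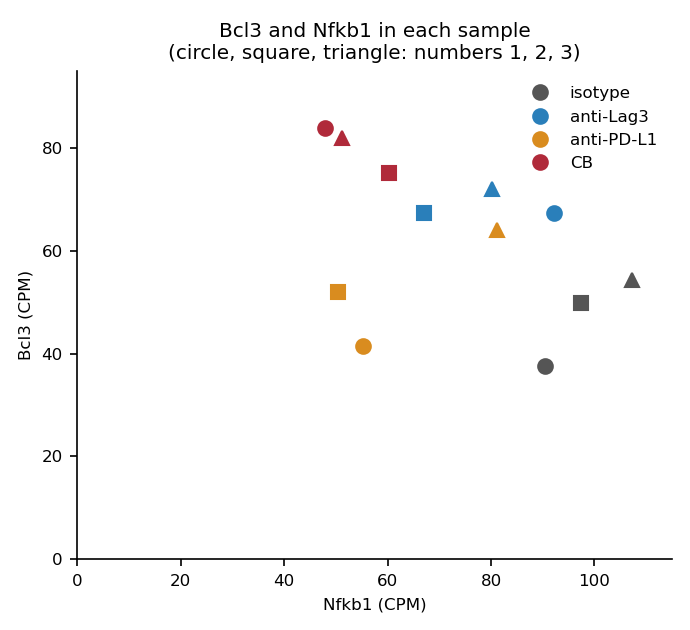
*Bcl3* against *Nfkb1* level (both CPM, linear axes from 0), 1 point a sample, coloured by group and shaped by sample number. Isotype samples lie at the lower right (*Nfkb1* from 90.4 to 107 CPM) and CB samples at the upper left (*Bcl3* from 75.2 to 83.9 CPM), while 2 of the 3 anti-PD-L1 samples lie low on both axes (*Bcl3* at 41.5 and 52.0 CPM) and the 3 anti-Lag3 samples lie between isotype and CB in *Bcl3*.

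Among the other subunits, *Rel* and *Nfkb2* separated CB from isotype in opposite directions without passing the test. *Rel*, which encodes c-Rel, the subunit most associated with lymphocyte activation, measured 36.4, 32.3 and 40.7 CPM in isotype and 24.4, 19.0 and 28.6 CPM in CB. With anti-PD-L1 it was at 22.8, 19.2 and 29.1 CPM and with anti-Lag3 at 25.0, 38.4 and 38.4 CPM. The CB and anti-PD-L1 samples all lay below isotype, and 2 of the 3 anti-Lag3 samples lay within the isotype range. The log2 difference from isotype was -0.60 for CB (95% interval -1.09 to -0.12, edgeR adjusted p = 0.186), -0.62 for anti-PD-L1 (edgeR adjusted p = 0.525) and -0.10 for anti-Lag3 (edgeR adjusted p = 1). The level of *Rel* in CB and in anti-PD-L1 differed by 0.02 on the log2 scale (95% interval -0.47 to 0.50).

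*Nfkb2*, which encodes p100 and p52 of the non-canonical route, measured 68.6, 63.3 and 66.1 CPM in isotype and 80.7, 89.0 and 74.1 CPM in CB. It ranged from 59.8 to 73.5 CPM with anti-Lag3 and from 54.5 to 83.7 CPM with anti-PD-L1. The 3 CB samples were above the 3 isotype samples but not above all anti-PD-L1 samples. The log2 difference of CB from isotype was 0.30 (95% interval -0.02 to 0.62, edgeR adjusted p = 0.377).

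*Rela* encodes the main transactivating partner of p50, and *Relb* the partner of p52. *Rela* ranged from 51.9 to 79.7 CPM in isotype and from 73.9 to 93.4 CPM in CB, with a log2 difference of 0.29 (95% interval -0.05 to 0.63, edgeR adjusted p = 0.402). *Relb* ranged from 18.3 to 22.8 CPM in isotype and from 22.6 to 24.1 CPM in CB, with a log2 difference of 0.24 (95% interval -0.32 to 0.80, edgeR adjusted p = 0.785). For both genes the groups overlapped.

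The cytoplasmic inhibitors were not called between any groups by the edgeR fit used here. *Nfkbib*, which encodes I-kappa-B beta, came nearest, with 69.7, 74.0 and 97.5 CPM in isotype, 86.3, 80.3 and 101 CPM in anti-Lag3, 92.9, 90.9 and 88.8 CPM in anti-PD-L1, and 116, 101 and 114 CPM in CB. Each CB sample was above each sample of the other groups, barely so for anti-Lag3 (lowest CB sample 100.84 CPM, highest anti-Lag3 sample 100.69 CPM). The log2 difference of CB from isotype was 0.45 (95% interval 0.16 to 0.74, edgeR adjusted p = 0.0674). It passed the threshold without isotype sample 3 (0.61, edgeR adjusted p = 0.0177) and with DESeq2 (0.45, adjusted p = 0.0357). With the sample number as a block it also passed (0.46, edgeR adjusted p = 0.0369). *Nfkbib* shares part of its locus with *Sirt2* on the opposite strand, to which 11810 reads were assigned, and whether reads were counted by strand is not given in the sources used here.

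*Nfkbia*, which encodes I-kappa-B alpha, the fast-turning inhibitor that NF-kB itself induces, averaged 1577 CPM in isotype, 1589 CPM in anti-Lag3, 1523 CPM in anti-PD-L1 and 1491 CPM in CB. The log2 difference of CB from isotype was -0.08 (95% interval -0.37 to 0.21, edgeR adjusted p = 0.905), and the interval leaves out changes as large as those of *Nfkb1* and *Bcl3*. *Nfkbie*, which encodes I-kappa-B epsilon, ranged from 5.81 to 29.5 CPM over the 12 samples, and *Nfkbid*, which encodes the nuclear protein I-kappa-B NS, from 17.0 to 38.9 CPM. Their differences of CB from isotype were 0.11 (95% interval -0.70 to 0.93) and 0.13 (95% interval -0.46 to 0.71) on the log2 scale. Both genes could therefore have changed appreciably without detection. With the Y-linked pattern as a covariate, *Nfkbia* was at -0.22 (edgeR adjusted p = 0.151), and the signs of *Nfkbid* (-0.031) and *Nfkbie* (-0.14) turned, all uncalled.

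Counted over the 10 genes, 3 (*Nfkb2*, *Nfkbib* and *Bcl3*) had all CB values above the isotype range, 2 (*Nfkb1* and *Rel*) had all of them below it, and 5 overlapped. Over all genes tested, 20% had groups that did not overlap. The median log2 difference was 0.18 over the 10 genes and 0 over all genes.

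**Figure D3:**
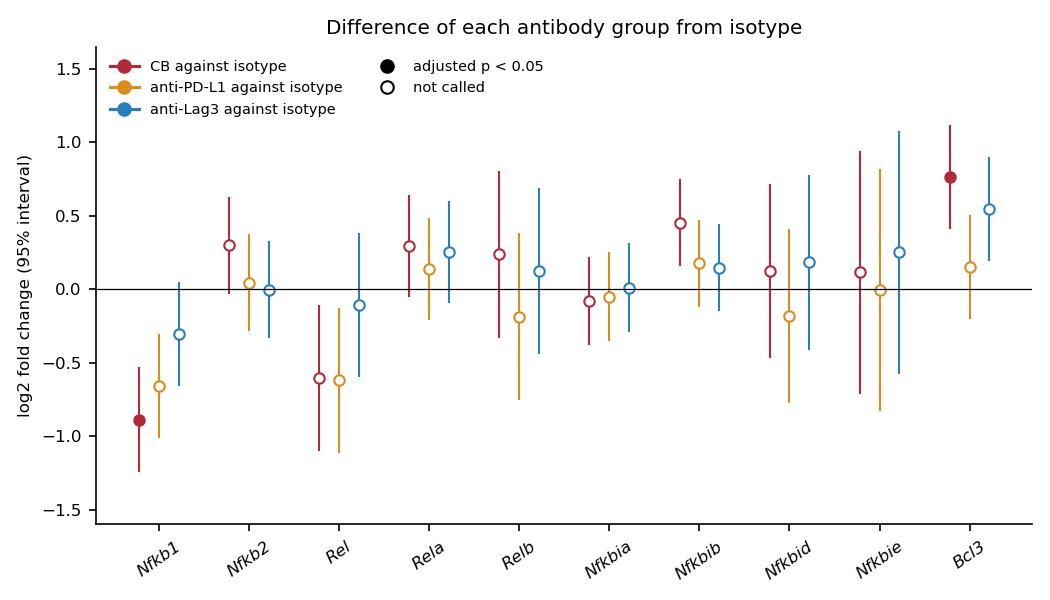
Log2 fold change of each antibody group from isotype for the 10 genes (points, filled where the adjusted p is under 0.05) with 95% intervals (vertical lines). The 2 filled points are *Nfkb1* and *Bcl3* in CB, and the 3 comparisons share the same isotype samples.

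In the remaining comparisons, 0 members were called by the edgeR fit used here, with its filter and without a block, or by DESeq2. Without the filter on low counts, edgeR called *Nfkb1* in anti-PD-L1 against isotype (adjusted p = 0.0209) and in CB against anti-Lag3 (adjusted p = 0.0236), and *Bcl3* in CB against anti-PD-L1 (adjusted p = 0.0329). Against isotype, anti-PD-L1 called 5 genes (0.0330%), with 1187 of 15138 genes and 2 of the 10 (*Nfkb1* and *Rel*) at an unadjusted p under 0.05. Anti-Lag3 called 0 genes (0%), with 788 genes and *Bcl3* alone of the 10 at an unadjusted p under 0.05. DESeq2 called 9 genes in the latter comparison. CB against anti-PD-L1 called 56 genes (0.370%), and here *Bcl3* differed by 0.61 on the log2 scale (95% interval 0.27 to 0.96, edgeR adjusted p = 0.133). CB against anti-Lag3 called 105 genes (0.694%), and *Nfkb1* differed by -0.59 (95% interval -0.94 to -0.24, edgeR adjusted p = 0.119). The values thus placed *Nfkb1* in CB nearer to anti-PD-L1 (-0.23, 95% interval -0.58 to 0.12) and *Bcl3* in CB nearer to anti-Lag3 (0.22, 95% interval -0.12 to 0.57), but none of these 4 differences passed.

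Whether the effect of both antibodies departed from the sum of the single effects was tested as an interaction on the log2 scale. The test called 0 genes (0%), with 898 genes and 0 of the 10 at an unadjusted p under 0.05, and DESeq2 called 5 genes, none of the 10. The interaction was 0.07 for *Nfkb1* (95% interval -0.42 to 0.56) and 0.07 for *Bcl3* (95% interval -0.42 to 0.55). The single differences of *Nfkb1* (-0.66 and -0.30) and of *Bcl3* (0.15 and 0.55) stand beside combined differences of -0.89 and 0.77, and the intervals are wide enough to hold a sizeable departure in either direction.

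*Nfkbia* varied with the number in the sample title more than with the antibody. In the samples numbered 1 it measured 1350 CPM in isotype, 1211 CPM in anti-Lag3, 1128 CPM in anti-PD-L1 and 1302 CPM in CB. The samples numbered 2 had 1567, 1631, 1559 and 1675 CPM and those numbered 3 had 1813, 1925, 1883 and 1498 CPM, in the same order of groups. All 4 samples numbered 1 lay below the other 8, and the samples numbered 2 and 3 overlapped. With the groups in the model, the log2 difference from number 1 was 0.37 for number 2 and 0.51 for number 3 (edgeR adjusted p = 4.15e-06, a test added after the data were seen). Number 3 differed from number 2 by 0.14 (edgeR adjusted p = 1). This test called 40 genes (0.264%), and *Nfkbia* was the only one of the 10, also when any of the 12 samples was dropped.

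The labels do not say what the number stands for, and the study sorted cells in batches of 4 with 1 mouse a condition. The Y-linked transcripts moved with the number, with isotype sample 2 as the exception. That sample (Y-linked sum 104 CPM) had an *Nfkbia* level of 1567 CPM, within the range of the other samples numbered 2. It is a single sample, and whether *Nfkbia* followed the number or the Y-linked pattern was not tested. Other genes called by number included the activation genes *Junb*, *Nr4a1* and *Pim1*, with log2 differences of number 3 from number 1 of 0.49, 0.71 and 0.63, named here after their values were seen. *Nfkbie* differed by 0.68 and 0.98 in the same test (edgeR adjusted p = 0.464). Over the 12 samples the log2 CPM of *Nfkbia* and *Nfkbie* had a Pearson r of 0.73, given as a description of libraries that share their numbering.

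**Figure D4:**
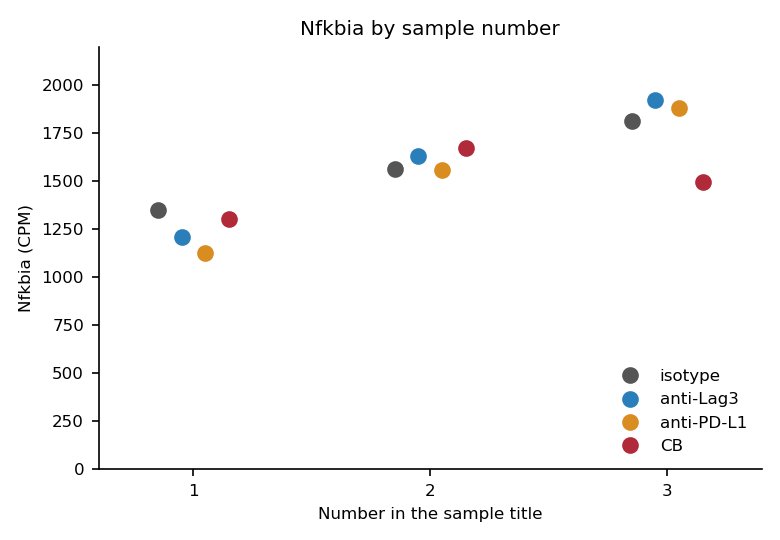
*Nfkbia* level (CPM, linear axis from 0) by the number in the sample title, 1 point a sample, coloured by group. The samples numbered 1 reach at most 1350 CPM and all others lie at 1498 CPM or more.

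The rest of the pathway was described by lists of receptors, activating proteins, brakes and targets. Of the receptors listed as feeding NF-kB, 3 of 9 tested rose in CB against isotype and 0 fell, where 2.33% of all genes rose and 1.96% fell. The list median was 0.10 on the log2 scale. The genes that rose were *Tnfrsf4* (OX40), *Tnfrsf9* (4-1BB) and *Icos*, a co-stimulatory receptor that signals chiefly through PI3-kinase. The paper names these 3 among its differentially expressed genes, and the list was drawn up with earlier results of these data known. The count is therefore a description and no test of the list. *Tnfrsf4* measured 56.1, 68.6 and 79.1 CPM in isotype and 125, 129 and 138 CPM in CB (log2 difference 0.95, edgeR adjusted p = 2.65e-04). *Tnfrsf9* measured 33.9, 34.6 and 32.5 CPM in isotype and 60.7, 66.3 and 64.5 CPM in CB (log2 difference 0.92, edgeR adjusted p = 0.00269), and it shares its 3′ end with *Camta1* on the opposite strand. *Icos* measured 320, 402 and 394 CPM in isotype and 606, 663 and 522 CPM in CB (log2 difference 0.68, edgeR adjusted p = 1.15e-04).

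In the canonical activation list, which runs from *Prkcq* to the I-kappa-B kinase and the linear ubiquitin ligase, 0 of 17 genes were called, against 4.29% of all genes. Values were higher for 6 and lower for 11. An unadjusted p under 0.05 was found for 1 of them and for 2256 of all 15138 genes. DESeq2 also called 0 of the 17. The gene with the smallest p was *Bcl10*, at -0.42 (edgeR adjusted p = 0.140). In the non-canonical list, 1 of 6 genes was called, beside the same 4.29% of all genes. *Traf2*, an adaptor that restrains NIK and also carries signals of OX40 and 4-1BB, rose from 11.4, 12.5 and 14.6 CPM in isotype to 28.9, 25.3 and 26.4 CPM in CB (log2 difference 1.07, edgeR adjusted p = 0.0116). The *Traf2* call was kept in 10 of the 12 fits with a sample left out, and was lost without isotype sample 1 (edgeR adjusted p = 0.0646) and without CB sample 1 (edgeR adjusted p = 0.0578). *Map3k14*, which encodes NIK, was at -0.23 (edgeR adjusted p = 0.901).

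Of the 13 brakes, edgeR called 1 lower and 0 higher, against 1.96% and 2.33% of all genes. Values were lower in CB for 10 and higher for 3, with a median of -0.16, beside 7488 lower and 7388 higher over all genes. *Tnfaip3*, which encodes the ubiquitin-editing enzyme A20, measured 68.6, 66.3 and 85.5 CPM in isotype and 35.5, 55.4 and 37.8 CPM in CB (log2 difference -0.78, edgeR adjusted p = 0.0311). Its anti-PD-L1 samples, at 30.0, 39.9 and 59.9 CPM, also lay below isotype (log2 difference -0.76, edgeR adjusted p = 0.316). The *Tnfaip3* call was kept in 8 of the 12 fits that left out a sample. Among 5 further I-kappa-B genes and cofactors edgeR called 0 and 1 had an unadjusted p under 0.05, as had 2256 of all 15138 genes. The gene with the smallest p, *Akirin2*, a nuclear cofactor, was at -0.52 (edgeR adjusted p = 0.0704) and was the 1 gene of this list that DESeq2 called.

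Of 24 textbook NF-kB targets tested, edgeR called 2 higher and 0 lower in CB, against 2.33% and 1.96% of all genes. Values were higher for 12 and lower for 12, and the median was -0.01. DESeq2 called 3, the same 2 and *Traf1*, an adaptor of the TNF receptor family, which measured 156, 142 and 138 CPM in isotype and 114, 112 and 110 CPM in CB (log2 difference -0.38, edgeR adjusted p = 0.0933). *Irf4*, a transcription factor graded by antigen receptor signal strength, measured 70.8, 75.6 and 53.3 CPM in isotype and 149, 86.0 and 107 CPM in CB (log2 difference 0.78, edgeR adjusted p = 0.0122). *Il2ra*, the alpha chain of the interleukin-2 receptor, measured 14.1, 24.1 and 25.4 CPM in isotype and 26.1, 41.8 and 58.6 CPM in CB (log2 difference 0.99, edgeR adjusted p = 0.0288). *Irf4* kept its call in 10 and *Il2ra* in 9 of the 12 fits that left out a sample. Both are also targets of other antigen receptor pathways. In anti-PD-L1 and in anti-Lag3 against isotype, both edgeR and DESeq2 called 0 genes of these lists. Of the 24 targets, 4 had an unadjusted p under 0.05 with anti-Lag3 and 2 with anti-PD-L1. Over all 15138 genes, 788 and 1187 had such a p.

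**Figure D5:**
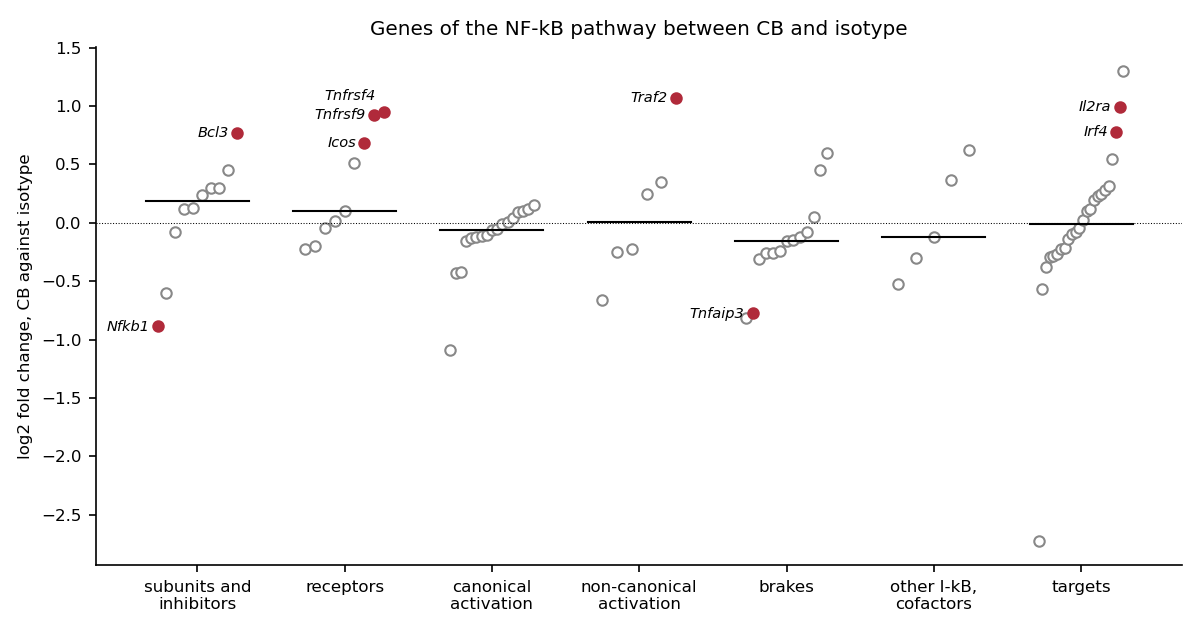
Log2 fold change of CB against isotype for every tested gene of the 7 lists, 1 point a gene ordered by value within its list, filled and named where the adjusted p is under 0.05, with a horizontal line at each list's median. Called genes are few in each list and the medians lie between -0.16 and 0.18.

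The expression patterns most like those of the called pair were sought over the 12 samples among 10448 genes whose mean count was 30 or more. *Ctps2* (Pearson r = 0.96), *Smc4* (0.95) and *Abcg1* (0.95) followed *Nfkb1* most closely, and *Mphosph10* (0.92), *Stx11* (0.90) and *Erp29* (0.89) followed *Bcl3*. *Abcg1* and *Erp29* were not themselves called between CB and isotype. These values rank genes over samples that share group structure and are a description. The erythroid, T cell and CD8 marker values and the *Gzma* level given above also moved between CB and isotype. Their part in the differences of the NF-kB genes was not tested.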

How the data were processed

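Libraries were QuantSeq 3′ mRNA-seq without molecular identifiers. The authors trimmed reads with Cutadapt 1.18, aligned them to GRCm38 with STAR 2.6.1a, and counted uniquely mapped reads per gene with featureCounts 1.6.4. The deposited raw counts were used, and their regularised log table was not. Columns of no sample in use numbered 0, and 114 spike-in rows were left out. Groups came from the labels. Genes with 30 or more summed reads entered edgeR 4.0.16 (R 4.3.3, trimmed mean of M-values, quasi-likelihood test, 4 group means, no covariates), with 6 comparisons and Benjamini-Hochberg adjustment over 15138 genes. DESeq2 1.42.0, other scalings and filters, a replicate block and left-out samples were alternatives. In simulated data for CB against isotype, 48% of 2-fold changes were recovered. The genes and lists were chosen with earlier results of these data known. All 10 members were named in full. From each other list the genes called in CB against isotype, at most 6, or else that of smallest p, were named, and 3 genes most like *Nfkb1* and *Bcl3*. 1 gene of the canonical activation list is not reported here. *Map3k14*, *Traf1* and the genes called by sample number were named outside this rule. P-values set a difference between groups against the spread between mice within groups, pooled over the 12 samples. That spread includes differences by sample number and Y-linked pattern, which the edgeR fit used here does not model.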

Additional observations from a re-analysis of the deposited data

How the results depend on the processing

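*Nfkb1* kept its call between CB and isotype in all 12 fits that left out a sample and all 7 other settings planned, with log2 differences from -0.99 to -0.82. *Bcl3* ranged from 0.62 to 0.88 and lost its call without isotype sample 1 (edgeR adjusted p = 0.0595) and with DESeq2 testing against a threshold of 0.2 on the log2 scale (adjusted p = 0.120). *Nfkbib* passed with DESeq2's test against 0 (adjusted p = 0.0357). Leaving out single samples turned the sign of 3 uncalled genes: *Nfkbia* ranged from -0.18 to 0.029, *Nfkbid* from -0.25 to 0.47 and *Nfkbie* from -0.20 to 0.34. With the Y-linked pattern as a covariate, chosen after seeing the data, *Nfkbid* was at -0.031 and *Nfkbie* at -0.135. Members called in CB against isotype numbered 2, 1 with DESeq2 against 0.2, and 1 to 3 with a sample left out.

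All-gene counts moved more. In CB against isotype 649 genes became 233 with DESeq2 against 0.2 and 394 to 705 with a sample left out (405 without isotype sample 1, 421 without CB sample 1, 394 without CB sample 3), and 731 with the Y-linked pattern as a covariate, an alternative chosen after seeing the data. The following are for DESeq2 against 0, DESeq2 against 0.2 and no filter on low counts. Anti-PD-L1 against isotype (5) gave 56, 11 and 40, only the groups compared gave 3, and left-out samples 0 to 10. Anti-Lag3 against isotype (0) gave 9, 2 and 14, and left-out samples 0 to 1. CB against anti-PD-L1 (56) gave 178, 18 and 150, only the groups compared gave 4, and left-out samples 4 to 57. CB against anti-Lag3 (105) gave 280, 41 and 252, and left-out samples 42 to 125. The interaction (0) gave 5, 2 and 10, and left-out samples 0 to 2. The cause was not tested. Without the filter, *Nfkb1* was called in anti-PD-L1 against isotype (edgeR adjusted p = 0.0209) and CB against anti-Lag3 (0.0236), and *Bcl3* in CB against anti-PD-L1 (0.0329); *Nfkb1* was also called in anti-PD-L1 against isotype without anti-PD-L1 sample 3 (0.0369). Genes called by sample number (40) numbered 61 without the filter, 28 with filterByExpr and 17 to 57 with a sample left out, and 1 member throughout.

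Samples with the same number deviated together weakly over 10448 genes (18 pairs, r from -0.06 to 0.12, 2 over 0.1). For 8 of 12 samples, the mean correlation with samples of each number was highest for their own number. The numbers were not taken to pair the samples, although the study sorted cells in batches of 4 with 1 mouse a condition. With a replicate block, counts in the 6 comparisons were 843, 23, 9, 137, 208 and 4, in the order above, and 3 members were called between CB and isotype, with *Nfkbib* added (0.46, edgeR adjusted p = 0.0369). *Bcl3* then also passed in CB against anti-PD-L1 (edgeR adjusted p = 0.0444). In simulated data 14% of 1.5-fold changes were recovered in CB against isotype, so changes of the size of *Nfkb2* or *Rela* were mostly below detection at this depth and number of mice.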
